A study of Mus musculus with 9 samples.

Results

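Bone morphogenetic protein (BMP) and transforming growth factor beta (TGF-beta) signalling genes were followed in the ileal stem cell niche of mice with and without ileitis. The set held 35 genes, found in the deposited expression table by matching their symbols through NCBI gene numbers, out of 18220 rows in all. It holds 10 ligands, 1 protease, 8 receptors, 5 signal-transducing Smads, 3 intracellular or membrane inhibitors, 4 secreted antagonists and 4 Id target genes. All 35 had a row in the table. The 26 whose mean over the 9 libraries was at least 1 FPKM (fragments per kilobase of transcript, scaled to the size of the library) entered the tests, and 9 lay below that level.

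The 9 libraries were made from total RNA of stem cell niches cut by laser from the small intestine, with 3 biological replicates in each of 3 groups. SAMP 25 wk were SAMP/YitFc mice aged 25 weeks, described as highly diseased with Crohn's disease-like ileitis. SAMP 5 wk were mice of the same strain aged 5 weeks, without inflammation. AKR 25 wk were mice of the AKR control strain aged 25 weeks, also without inflammation. All groups were labelled wild type and no agent separates them, but the SAMP and AKR strains are not genetically alike. The labels also refer to cultured crypts, and they give neither the sex of the mice nor how many stand behind each library. SAMP 25 wk and AKR 25 wk differ in strain and ileitis together, SAMP 25 wk and SAMP 5 wk in age and ileitis together, and SAMP 5 wk and AKR 25 wk in strain and age together, and within each pair the differences cannot be told apart.

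BMP and TGF-beta ligands are secreted dimers that bring together a type I and a type II receptor kinase at the cell surface. BMP receptors phosphorylate Smad1 and Smad5, TGF-beta and activin receptors phosphorylate Smad2 and Smad3, and both kinds of Smad enter the nucleus with Smad4. In the intestine BMP signalling is known to be low at the crypt base, where stromal antagonists such as gremlin 1 and noggin hold it down, and to rise towards the villus, where it restrains stem cell expansion and favours differentiation.

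Libraries rested on an estimated 6990000 to 10210000 reads, so that an FPKM of 1 in a 2 kb transcript stood for 14.0 to 20.4 reads. Markers of the labelled tissue were present in each group: the summed FPKM of 5 stem cell markers was 614.5 to 740.0 in SAMP 25 wk, 899.6 to 1120.5 in SAMP 5 wk, against 251.5 to 615.8 in AKR 25 wk, and all 6 glial and neuronal markers stayed under 1 in every library. Olfm4 made up most of each stem cell sum. The other 4 stem cell markers were lower on average in SAMP 25 wk than in AKR 25 wk. A pair of libraries stood apart. AKR 25 wk replicate 2 had a summed FPKM of 17469.1 for 12 enterocyte markers, against 471.2 and 802.5 in the other AKR libraries, and SAMP 25 wk replicate 3 had an FPKM of 176.8 for Xist and 0.14 for the Y-linked Eif2s3y, which no other library shared. For SAMP 25 wk against AKR 25 wk, the differences of Acvr1b, Nedd4l, Pmepa1, Id1, Id3, Smad5 and Bmp3 are also given without this pair. In bulk tissue, fewer cells of a type and less RNA per cell cannot be told apart.

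The most abundant members were the receptors Bmpr1a, Tgfbr2 and Bmpr2, the signal transducers Smad1 and Smad4, and the targets Id1 and Id3. Levels in FPKM are per transcript length and can be set beside each other between genes. Over the 9 libraries the highest mean level was 21.6 FPKM for Bmpr1a, a type I BMP receptor. Next came Smad1 at 20.9, Id3 at 19.0, Smad4 at 18.8 and Id1 at 18.01 FPKM, which differ by less than the spread between libraries. The steadiest members were Smad4, the common partner of all receptor-activated Smads, with a highest library 1.42 times its lowest, and Bmpr2, the type II BMP receptor, with a ratio of 1.49. The same ratio was 6.53 for Id1, the largest among the 26 members tested, and 4.59 for Bmp3.

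**Figure D1:**
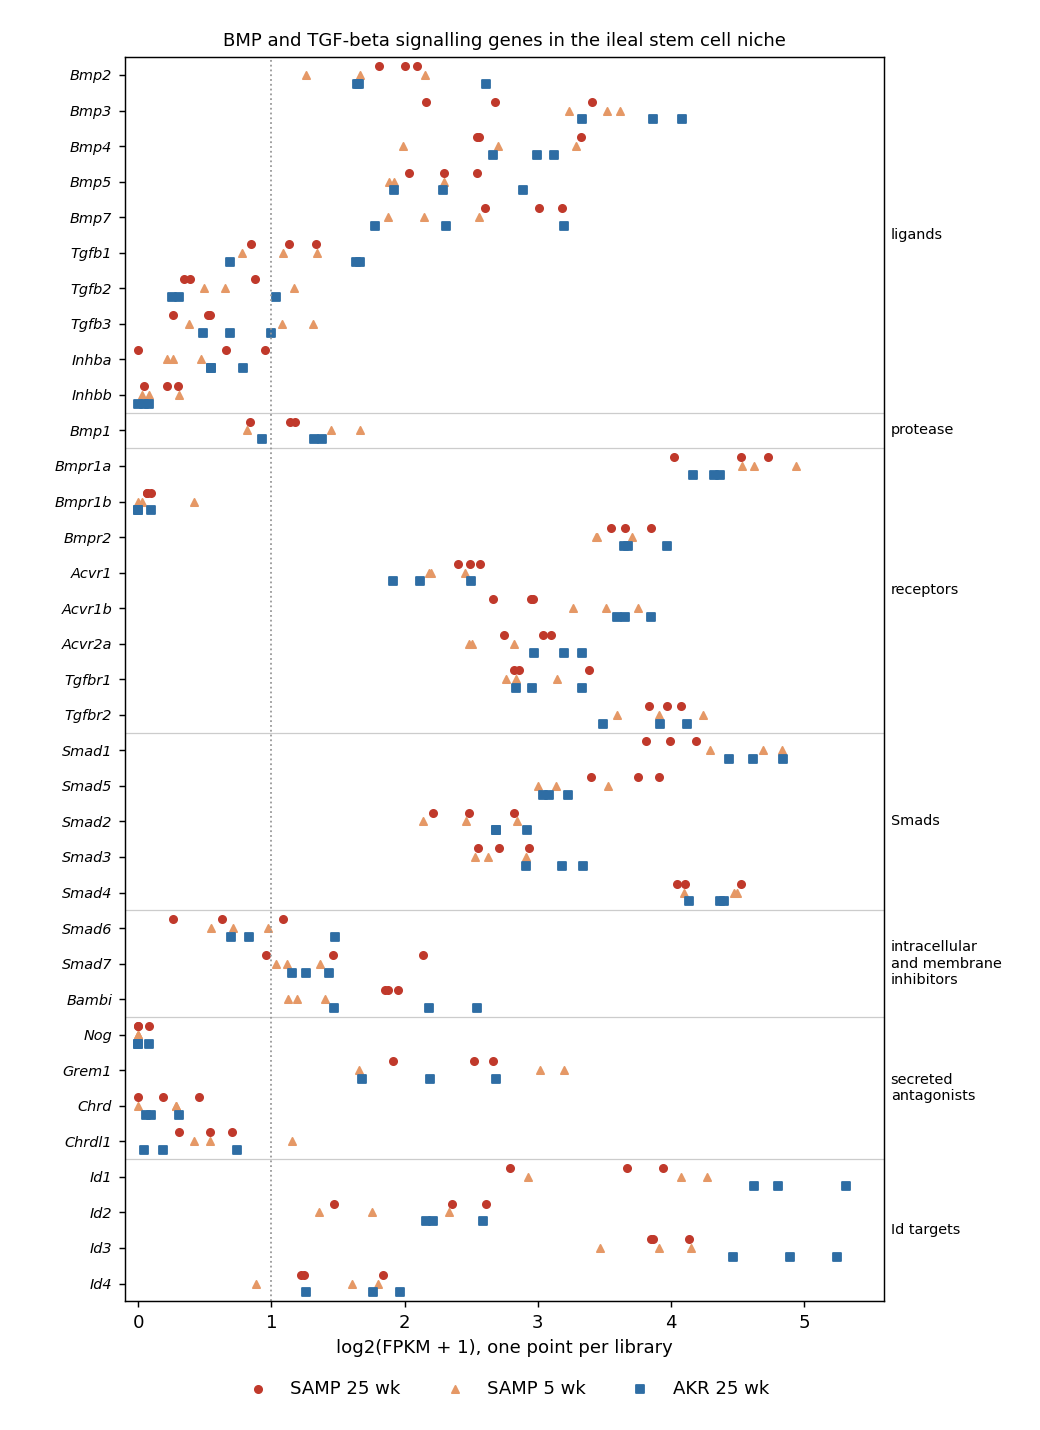
Expression of the 35 genes on the log2(FPKM + 1) scale, 1 point per library, grouped by role, with the dotted line at an FPKM of 1. Bmpr1a, Smad1, Smad4, Id1 and Id3 lie farthest to the right, and Nog, Chrd, Bmpr1b and Inhbb lie near 0 in every group.

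In the diseased niche 1 member passed the test. Differences were taken on log2(FPKM + 1) with limma over 11775 genes, and a gene was called at a Benjamini-Hochberg adjusted p under 0.05. Between SAMP 25 wk and AKR 25 wk, 1 of 26 members was called, Acvr1b, which was lower, beside 2.94% of all genes tested, 1.59% called higher and 1.35% called lower. Between SAMP 25 wk and SAMP 5 wk 0 of 26 were called, beside 1.52% of all genes, and between SAMP 5 wk and AKR 25 wk 0 of 26, beside 0.552%. At an unadjusted p under 0.05 the limma fit had 6, 5 and 4 of the 26 members in the same order of comparisons, beside 15.5%, 16.5% and 7.47% of all genes. For the members these unadjusted shares were 23.1%, 19.2% and 15.4%. In a set of 26, 1 gene is a share of 3.85%, which was also the share called in the first comparison. Whether the members' shares differ from those of all genes was not tested. Counted by libraries alone, the groups of SAMP 25 wk and AKR 25 wk did not overlap for 1 higher member (Smad5) and 4 lower ones (Acvr1b, Id1, Id3 and Smad1), beside 6.6% and 12.6% of all genes. For SAMP 25 wk and SAMP 5 wk it was 2 higher (Bmp7 and Bambi) and 2 lower (Acvr1b and Smad1), beside 7.95% and 12.3%. For SAMP 5 wk and AKR 25 wk it was 1 higher (Bmpr1a) and 4 lower (Acvr2a, Id1, Id3 and Bambi), beside 6.11% and 8.33%. The median difference over the members was -0.14, 0.07 and -0.23 on the log2 scale, beside -0.15, -0.12 and -0.03 over all genes tested. Setting the libraries to equal medians moved the all-gene median of the first comparison to -0.01 and the share of its calls that were higher to 66.7%, against 54.0% as tested. That share was 64.9% with quantile normalization, 46.3% with values rescaled to TPM and 36.6% without SAMP 25 wk replicate 1, so which direction held most calls depended on the setting. The comparisons share libraries, so their values are set side by side and not counted as separate support.

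**Figure D2:**
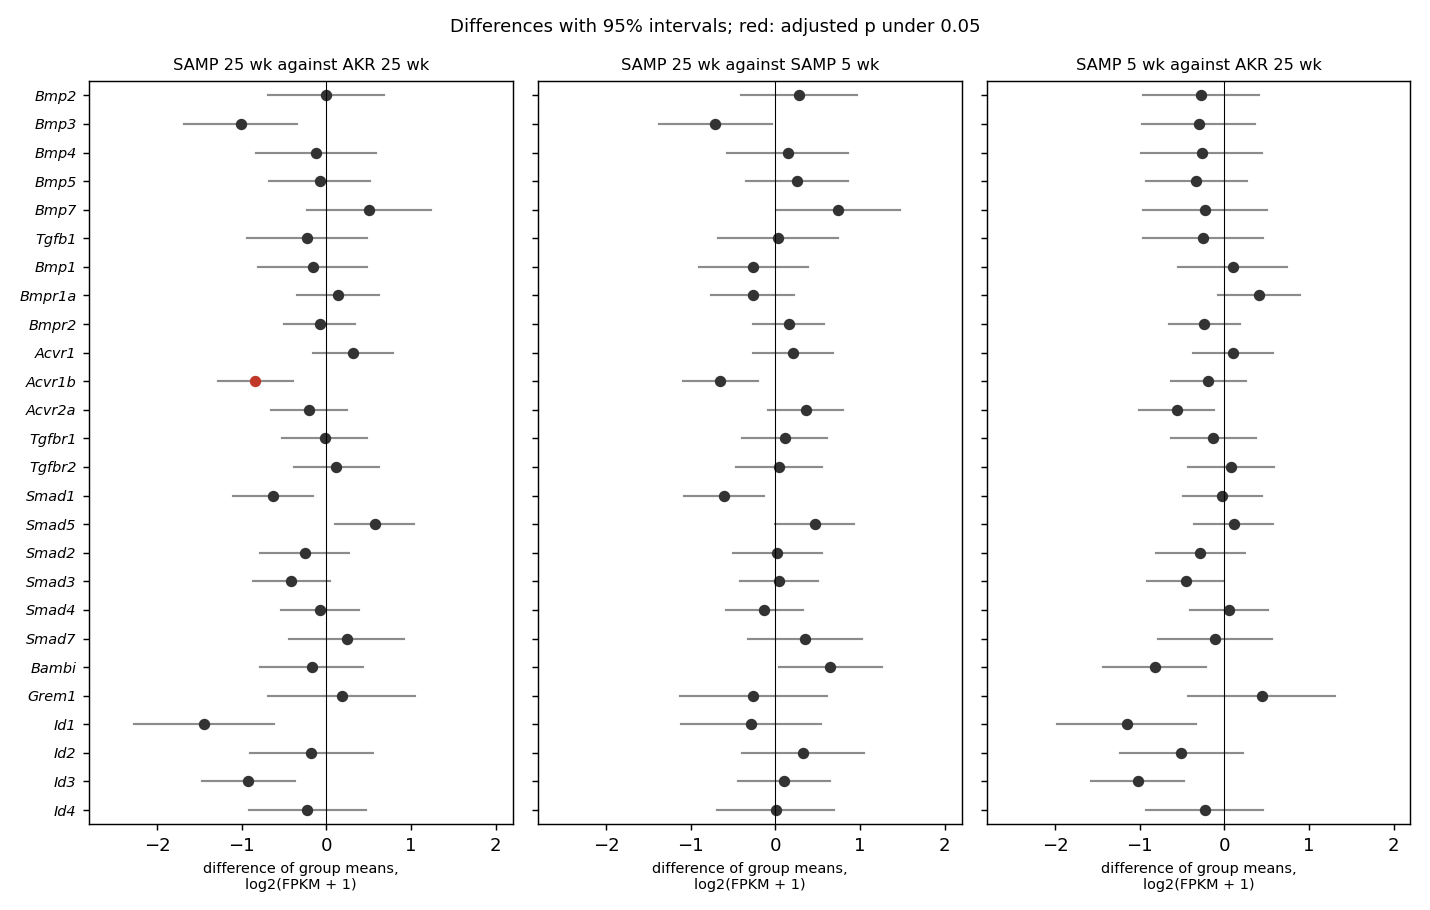
Difference of group means on the log2(FPKM + 1) scale for the 26 members tested, with 95% intervals from the limma fit that are not adjusted for the number of genes, in 3 panels for the 3 comparisons. Acvr1b in SAMP 25 wk against AKR 25 wk, in red, is the 1 member with an adjusted p under 0.05, and Id1 and Id3 lie left of 0 in both comparisons with AKR 25 wk.

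The Id genes encode helix-loop-helix proteins that bind basic helix-loop-helix transcription factors and keep them off DNA, and they are classic direct targets of BMP-activated Smad1 and Smad5. Id1 and Id3 were lower in all 6 SAMP libraries than in all 3 AKR libraries, at 5 and at 25 weeks, although neither difference passed the adjusted test. Id1 (chromosome 2, 152736251 to 152737410 in GRCm38.p6) was at 14.35, 5.94 and 11.73 FPKM in SAMP 25 wk, at 18.33, 6.62 and 15.83 FPKM in SAMP 5 wk and at 23.67, 38.78 and 26.87 FPKM in AKR 25 wk. The highest SAMP library lay under the lowest AKR library, while the SAMP ages overlapped. The mean level was 10.7 ± 4.3 FPKM in SAMP 25 wk, 13.6 ± 6.17 in SAMP 5 wk and 29.8 ± 7.96 in AKR 25 wk (SD, n = 3 each). The difference was -1.44 ± 0.38 on the log2 scale (SE, limma adjusted p = 0.069) in SAMP 25 wk against AKR 25 wk. It was -1.15 ± 0.38 (limma adjusted p = 0.41) in SAMP 5 wk against AKR 25 wk, and -0.29 ± 0.38 (limma adjusted p = 0.75) in SAMP 25 wk against SAMP 5 wk.

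Id3 (chromosome 4, 136143822 to 136145392) was at 16.58, 13.41 and 13.58 FPKM in SAMP 25 wk, at 16.79, 10.08 and 14.05 FPKM in SAMP 5 wk and at 28.73, 37.02 and 21.11 FPKM in AKR 25 wk. Here too no SAMP library reached the lowest AKR library, and the SAMP ages overlapped. The difference was -0.92 ± 0.25 on the log2 scale (SE, limma adjusted p = 0.080) in SAMP 25 wk against AKR 25 wk and -1.02 ± 0.25 (limma adjusted p = 0.15) in SAMP 5 wk against AKR 25 wk. Between SAMP 25 wk and SAMP 5 wk it was 0.11, with a 95% interval of -0.44 to 0.65. Of the 26 members, 2 lay lower in all 6 SAMP libraries than in all AKR libraries and 0 lay higher, beside 3.49% and 1.48% of all genes tested.

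AKR 25 wk replicate 2, the library rich in enterocyte markers, had the highest Id1 and Id3 of all 9. Without it, the SAMP 25 wk minus AKR 25 wk difference was -1.24 for Id1 (limma adjusted p = 0.21) and -0.73 for Id3 (limma adjusted p = 0.24). Because it was the highest library, leaving it out could not change the lack of overlap between SAMP and AKR libraries for either gene. Without this library and SAMP 25 wk replicate 3 together, the differences were -1.35 (limma adjusted p = 0.29) and -0.69 (limma adjusted p = 0.42). In SAMP 25 wk against AKR 25 wk Id1 was called in 2 of 19 alternatives, without SAMP 25 wk replicate 1 (limma adjusted p = 0.046) and without SAMP 5 wk replicate 2 (limma adjusted p = 0.035). Id3 was called in 1 of 19 alternatives for each comparison with AKR 25 wk, quantile normalization, at -0.75 (limma adjusted p = 0.049) in SAMP 25 wk and at -0.98 (limma adjusted p = 0.039) in SAMP 5 wk.

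The summed enterocyte markers were also highest in AKR 25 wk replicate 2: they were 126.8 to 298.6 FPKM in SAMP 25 wk, 229.9 to 1581.4 in SAMP 5 wk, against 471.2 to 17469.1 in AKR 25 wk. Of the 12 enterocyte markers 11 were tested, and in SAMP 25 wk against AKR 25 wk 10 of them had a difference below 0, with a median of -2.24 on the log2 scale. In that comparison 6 were lower without overlap between libraries, and 7 had an unadjusted p under 0.05 in the limma fit. These 7 include the 1 marker called by the adjusted limma test, which was higher, while 0 were called lower. The sums of 9 leukocyte markers also ran in the same direction. They were 323.2 to 635.9 in SAMP 25 wk, 914.0 to 1220.9 in SAMP 5 wk, against 1482.7 to 2391.8 in AKR 25 wk. Cd74 made up most of each sum. In SAMP 25 wk against AKR 25 wk, 3 of the 8 tested were called lower, and all 8 had differences of -1.98 to -0.01. Ptprc overlapped between these groups, at 3.79 to 5.09 against 2.76 to 9.15 FPKM. No marker of either list was at 0 in all libraries. The part of either list in the Id1 and Id3 values was not tested.

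The other Id genes showed no separation by strain. Id2 ranged over 1.77 to 5.11 FPKM in SAMP 25 wk, 1.57 to 4.05 in SAMP 5 wk, against 3.48 to 5.02 in AKR 25 wk. Id4 ranged over 1.34 to 2.57, 0.85 to 2.48 and 1.40 to 2.90 FPKM in the same groups. All groups overlapped for both genes, and the 95% intervals of the differences from AKR 25 wk were wide, at -0.90 to 0.55 for Id2 and -0.92 to 0.46 for Id4 in SAMP 25 wk. By estimated reads Id2 was thinly covered, with 16 to 54 per library, against 39 to 303 for Id1 and 102 to 402 for Id3.

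**Figure D3:**
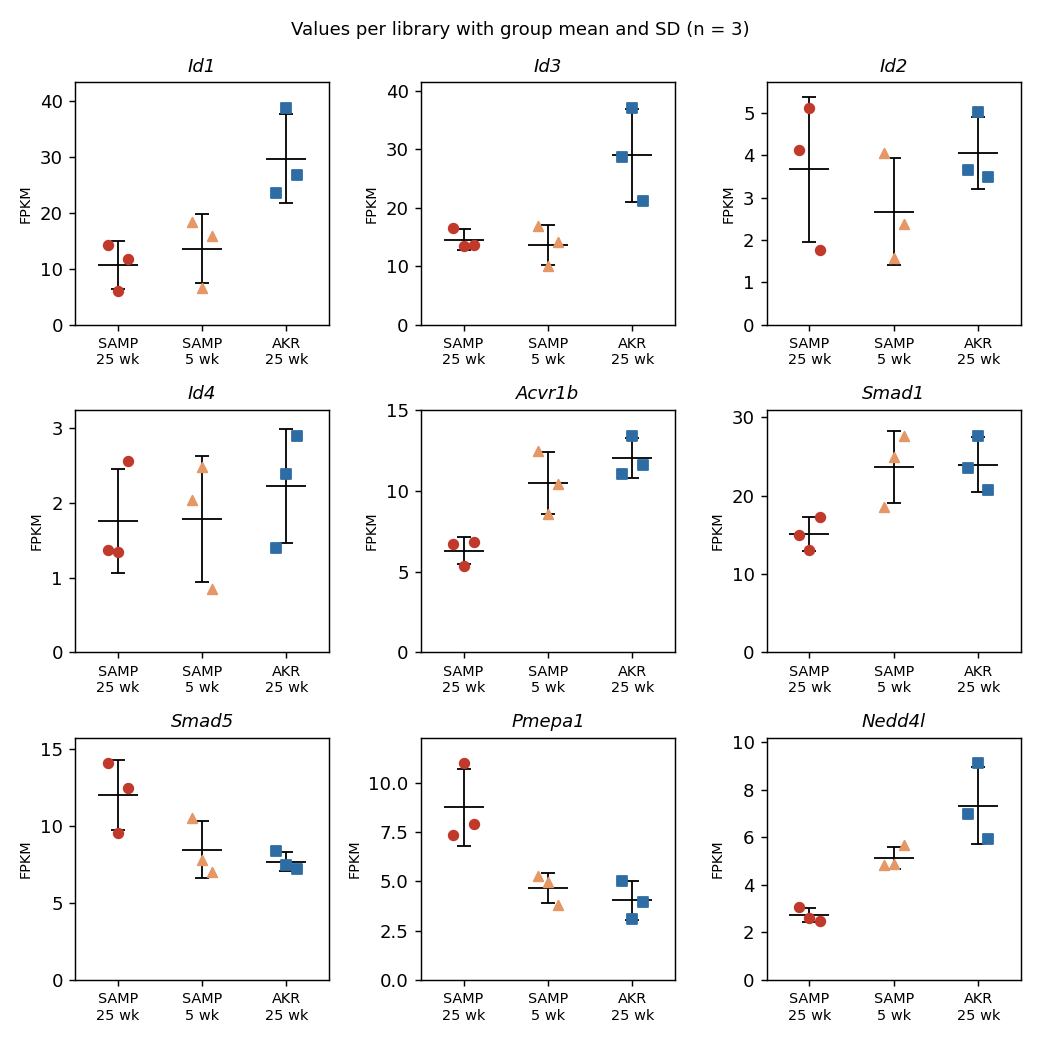
FPKM of 9 genes in each library, with the horizontal line at the group mean and the bar at 1 SD (n = 3). Id1 and Id3 sit lower in both SAMP groups than in AKR 25 wk, Acvr1b and Nedd4l sit lowest in SAMP 25 wk, and Id2 and Id4 overlap across groups.

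Among the receptors, Acvr1b was lower in SAMP 25 wk than in AKR 25 wk, at the threshold of the test. Acvr1b encodes ALK4, a type I receptor for activins that signals through Smad2 and Smad3. It lies on chromosome 15, from 101174072 to 101213684. Its level was 6.73, 5.34 and 6.82 FPKM in SAMP 25 wk, 12.48, 8.59 and 10.41 in SAMP 5 wk and 11.06, 13.41 and 11.59 in AKR 25 wk. Every diseased library lay under every library of the other groups, and SAMP 5 wk overlapped AKR 25 wk. Mean levels were 6.3 ± 0.83 FPKM in SAMP 25 wk, 10.5 ± 1.95 in SAMP 5 wk and 12.02 ± 1.23 in AKR 25 wk (SD, n = 3 each). Acvr1b was lower by 0.84 ± 0.20 on the log2 scale in SAMP 25 wk against AKR 25 wk (SE, limma adjusted p = 0.048), in 3 of 3 diseased libraries.

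Its difference was -0.65 ± 0.20 (SE, limma adjusted p = 0.15) in SAMP 25 wk against SAMP 5 wk and -0.19 ± 0.20 (limma adjusted p = 0.92) in SAMP 5 wk against AKR 25 wk. The call sat at the threshold. It held in 4 of 19 alternative analyses, with differences of -0.98 to -0.59 and limma adjusted p of 0.030 to 0.25. Leaving out any 1 library other than SAMP 5 wk replicate 1 ended it, with a limma adjusted p of 0.051 to 0.17 and differences of -0.89 to -0.74. Without both unusual libraries the difference was -0.82 (limma adjusted p = 0.25). Summed markers of tuft, Paneth and goblet cells also set the diseased group apart, while those of enteroendocrine cells did not. The 4 enteroendocrine markers summed to 34.9 to 62.6 FPKM in SAMP 25 wk, 48.7 to 57.5 in SAMP 5 wk, against 17.1 to 28.9 in AKR 25 wk. The 5 tuft cell markers summed to 34.4 to 41.2 FPKM in SAMP 25 wk, 8.0 to 16.9 in SAMP 5 wk, against 4.8 to 11.8 in AKR 25 wk, and 5 of 5 were called higher in SAMP 25 wk against AKR 25 wk. The 6 Paneth cell markers summed to 72336.3 to 115753.4, 43365.5 to 57000.7 and 30452.7 to 70647.0 FPKM in these groups, with 2 called higher and 0 lower. In SAMP 25 wk against AKR 25 wk, 5 of these 6 had a difference above 0. Lyz1 went the other way, at 5435 to 9141 FPKM in SAMP 25 wk, below every library of the other groups. The 6 goblet cell markers summed to 14321.1 to 18616.2, 4399.9 to 8706.1 and 5696.4 to 6606.0 FPKM in the same groups, with 3 called higher and 2 lower. Their part in the Acvr1b value was not tested.

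Promoter windows of the Id genes and of Acvr1b are shown because the Id genes are the target genes of the set and Acvr1b was the member called. They run from 250 bases before to 50 bases after the annotated start, 5′ to 3′ on the gene's strand, and come from RefSeq on GRCm38.p6. Id1 was not matched. Capitals mark letters bound by Smad complexes in other studies: GGCGCC, which reads the same on both strands, and CAGAC on either strand, written GTCTG where it lies on the other strand. The motifs share no overlap here. The windows are chr4:136143572-136143871 on the plus strand for Id3, chr12:25096043-25096342 on the minus strand for Id2, chr13:48260866-48261165 on the plus strand for Id4 and chr15:101173822-101174121 on the plus strand for Acvr1b.
Id3: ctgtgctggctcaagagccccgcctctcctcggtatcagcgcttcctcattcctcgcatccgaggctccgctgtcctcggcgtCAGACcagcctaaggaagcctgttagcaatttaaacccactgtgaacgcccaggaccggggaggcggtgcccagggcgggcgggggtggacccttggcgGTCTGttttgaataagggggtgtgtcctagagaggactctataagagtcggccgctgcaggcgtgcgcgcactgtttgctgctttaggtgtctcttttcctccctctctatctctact
Id2: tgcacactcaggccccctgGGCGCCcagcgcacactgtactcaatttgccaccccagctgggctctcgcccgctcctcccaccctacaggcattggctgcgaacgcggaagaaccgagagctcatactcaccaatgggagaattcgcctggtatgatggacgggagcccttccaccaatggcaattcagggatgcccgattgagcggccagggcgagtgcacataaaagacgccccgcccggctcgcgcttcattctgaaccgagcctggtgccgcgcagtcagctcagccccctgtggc
Id4: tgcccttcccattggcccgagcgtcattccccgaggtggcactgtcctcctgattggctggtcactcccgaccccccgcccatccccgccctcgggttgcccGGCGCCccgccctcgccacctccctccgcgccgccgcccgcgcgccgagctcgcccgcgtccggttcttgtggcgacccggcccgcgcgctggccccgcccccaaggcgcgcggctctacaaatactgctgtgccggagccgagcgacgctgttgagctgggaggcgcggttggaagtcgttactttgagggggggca
Acvr1b: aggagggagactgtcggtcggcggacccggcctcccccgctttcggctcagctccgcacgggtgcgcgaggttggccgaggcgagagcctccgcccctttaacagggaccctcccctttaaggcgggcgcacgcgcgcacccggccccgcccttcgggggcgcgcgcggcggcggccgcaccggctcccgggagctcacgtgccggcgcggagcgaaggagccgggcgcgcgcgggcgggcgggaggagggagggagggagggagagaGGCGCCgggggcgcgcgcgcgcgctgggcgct

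Positions count from the annotated start as the first base, with no position 0. Id3 holds CAGAC at -167 and its reverse complement at -68, Id2 holds GGCGCC at -231, Id4 at -148 and Acvr1b at 19. Of all 32851 windows, 11.9% hold GGCGCC and 49.6% hold CAGAC on either strand. For the 23 members matched outside chromosome 18 there were 28 windows, of which 10 hold GGCGCC and 11 hold CAGAC. Bmpr1b, Tgfbr1 and Smad5 have further windows, and some of those of Smad5 and of Bmpr1b share bases. The counts are therefore of windows and not of genes. The windows shown are rich in G and C, at 60% for Id3, 63.3% for Id2, 73.3% for Id4 and 79.7% for Acvr1b, beside a median of 52.7% over all windows. A match is a run of letters and does not show binding.

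The other receptors differed by less. Bmpr1a ranged over 15.3 to 25.6 FPKM in SAMP 25 wk, 22.2 to 29.6 in SAMP 5 wk, against 17.0 to 19.7 in AKR 25 wk, so that SAMP 5 wk lay above AKR 25 wk without overlap, with a 95% interval of -0.08 to 0.90 for that difference. Acvr2a, a type II activin receptor, ranged over 5.72 to 7.57 FPKM in SAMP 25 wk, 4.60 to 6.08 in SAMP 5 wk, against 6.85 to 9.08 in AKR 25 wk. SAMP 5 wk lay below AKR 25 wk, with a difference of -0.56 ± 0.20 on the log2 scale (SE, limma adjusted p = 0.51). Bmpr2 stayed between 9.85 and 14.68 FPKM over the 9 libraries, Acvr1, a further type I BMP receptor, between 2.76 and 4.93, and Tgfbr1 and Tgfbr2, the type I and type II TGF-beta receptors, between 5.77 and 9.43 and between 10.23 and 17.95. For SAMP 25 wk against AKR 25 wk the 95% intervals were -0.50 to 0.34 for Bmpr2, -0.52 to 0.48 for Tgfbr1 and -0.39 to 0.63 for Tgfbr2. Bmpr1b, the other classic type I BMP receptor, was listed at 0 in 3 libraries and reached 0.34 FPKM at most.

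The BMP-activated Smads differed from AKR in opposite directions in the diseased niche, and neither passed the test. Smad1 (chromosome 8, 79338395 to 79399428) was at 14.92, 13.02 and 17.28 FPKM in SAMP 25 wk, at 18.58, 24.87 and 27.57 in SAMP 5 wk and at 23.49, 27.63 and 20.68 in AKR 25 wk. All diseased libraries lay below all others, and SAMP 5 wk overlapped AKR 25 wk. The Smad1 difference was -0.63 ± 0.22 on the log2 scale (SE, limma adjusted p = 0.17) in SAMP 25 wk against AKR 25 wk and -0.61 ± 0.22 (limma adjusted p = 0.20) in SAMP 25 wk against SAMP 5 wk.

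Smad5 (chromosome 13, 56703010 to 56742378) was at 14.07, 9.54 and 12.46 FPKM in SAMP 25 wk, at 10.55, 7.80 and 7.03 in SAMP 5 wk and at 8.36, 7.47 and 7.21 in AKR 25 wk. The diseased libraries lay above all AKR libraries and overlapped SAMP 5 wk. The Smad5 difference was 0.57 ± 0.21 on the log2 scale (SE, limma adjusted p = 0.22) in SAMP 25 wk against AKR 25 wk. It was called in 2 of 19 alternatives, with libraries set to equal medians (0.71, limma adjusted p = 0.037) and with quantile normalization (0.71, limma adjusted p = 0.034). In the other 17 it was not, among them values rescaled to TPM (0.48, limma adjusted p = 0.26), SAMP 25 wk replicate 1 left out (0.46, limma adjusted p = 0.25) and both unusual libraries left out (0.52, limma adjusted p = 0.55). The mean of Smad1 was 15.1 ± 2.13 FPKM and that of Smad5 12.02 ± 2.3 FPKM in SAMP 25 wk, against 23.9 ± 3.5 and 7.68 ± 0.6 FPKM in AKR 25 wk (SD, n = 3 each).

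The TGF-beta and activin Smads and the common Smad gave no call. Smad2 lay between 3.41 and 6.58 FPKM over the 9 libraries, Smad3 between 4.76 and 9.12 and Smad4 between 15.54 and 22.03, and the groups overlapped for all 3 genes. The 95% interval of the SAMP 25 wk minus AKR 25 wk difference was -0.78 to 0.27 for Smad2, -0.87 to 0.04 for Smad3 and -0.53 to 0.39 for Smad4 on the log2 scale. The inhibitory Smads were low: Smad7, which targets TGF-beta receptors for breakdown, ranged over 0.95 to 3.41 FPKM, and Smad6, which restrains BMP signalling and is itself a BMP target, over 0.20 to 1.78 FPKM and below the level tested. The highest Smad6 was in AKR 25 wk replicate 2, where Id1 and Id3 were also highest, and the highest Smad7 was in SAMP 25 wk replicate 3.

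Bambi, a membrane pseudoreceptor without a kinase domain that blocks type I receptors, was at 2.86, 2.67 and 2.61 FPKM in SAMP 25 wk, at 1.29, 1.65 and 1.18 in SAMP 5 wk and at 3.55, 1.77 and 4.83 in AKR 25 wk. The young SAMP libraries were lowest, and neither older group overlapped them. The Bambi difference was 0.65 ± 0.28 on the log2 scale (SE, limma adjusted p = 0.28) in SAMP 25 wk against SAMP 5 wk and -0.82 ± 0.28 (limma adjusted p = 0.44) in SAMP 5 wk against AKR 25 wk.

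Of the ligands, Bmp3 was the most abundant, at a mean of 9.69 FPKM over the 9 libraries. Bmp3 is an atypical family member that antagonises other BMPs. It was at 9.60, 3.47 and 5.40 FPKM in SAMP 25 wk, at 11.25, 8.42 and 10.49 in SAMP 5 wk and at 9.08, 15.94 and 13.58 in AKR 25 wk. A pair of diseased libraries lay below every other, and SAMP 25 wk replicate 1 lay within the other groups' range. The Bmp3 difference was -1.01 ± 0.31 on the log2 scale (SE, limma adjusted p = 0.12) in SAMP 25 wk against AKR 25 wk and -0.71 ± 0.31 (limma adjusted p = 0.28) in SAMP 25 wk against SAMP 5 wk. Without SAMP 25 wk replicate 1 the first of these was -1.34 and was called (limma adjusted p = 0.023), in 1 of 19 alternatives. It was -0.72 (limma adjusted p = 0.38) without SAMP 25 wk replicate 2, -0.85 (limma adjusted p = 0.30) without AKR 25 wk replicate 2, and -0.82 (limma adjusted p = 0.48) without both unusual libraries.

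Bmp7, a BMP that also signals through activin-type receptors, ranged over 5.07 to 8.06 FPKM in SAMP 25 wk, 2.68 to 4.88 in SAMP 5 wk, against 2.43 to 8.15 in AKR 25 wk. The diseased group lay above the young SAMP group, and AKR 25 wk spanned both. The Bmp7 difference was 0.74 ± 0.34 on the log2 scale (SE, limma adjusted p = 0.30) in SAMP 25 wk against SAMP 5 wk and 0.50 ± 0.34 (limma adjusted p = 0.50) in SAMP 25 wk against AKR 25 wk. The difference from AKR 25 wk lay between 0.06 and 0.89 over the alternatives.

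Bmp2, Bmp4 and Bmp5, the other BMP ligands of the set, ranged over 1.39 to 5.11, 2.97 to 9.0 and 2.69 to 6.43 FPKM, and all groups overlapped. Their 95% intervals for SAMP 25 wk against AKR 25 wk were -0.69 to 0.69, -0.83 to 0.59 and -0.67 to 0.52 on the log2 scale, in the order named. TGF-beta ligands were scarce. Tgfb1 lay between 0.61 and 2.17 FPKM, which stood for an estimated 11 to 40 reads, while Tgfb2 at 0.19 to 1.25 and Tgfb3 at 0.20 to 1.48 FPKM were below the level tested. The activin subunit genes Inhba and Inhbb reached 0.94 and 0.24 FPKM at most. Bmp1, named for its copurification with BMPs, is a protease that processes procollagen and cleaves chordin, and it lay between 0.76 and 2.18 FPKM.

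Gremlin 1 was the secreted antagonist present in every library. Grem1 (chromosome 2, 113748675 to 113758648) was at 5.34, 4.75 and 2.76 FPKM in SAMP 25 wk, at 7.11, 8.16 and 2.16 in SAMP 5 wk and at 3.56, 2.21 and 5.43 in AKR 25 wk. All groups overlapped, and a library under 3 FPKM stood in each of them, while the 95% interval of the SAMP 25 wk minus AKR 25 wk difference was -0.69 to 1.05 on the log2 scale. Nog, the gene of noggin, was listed at 0 in 7 of 9 libraries and at 0.06 FPKM in the others, an estimated 1 read at most. Chrd, the gene of chordin, and Chrdl1, a chordin-like antagonist, reached 0.37 and 1.23 FPKM.

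Grem1, Bmp4, Bmp1 and Bmp2 encode secreted proteins, gremlin 1 among them a stromal antagonist, and 12 fibroblast markers were set beside them. The markers summed to 199.4 to 294.9 FPKM in SAMP 25 wk, 177.5 to 363.7 in SAMP 5 wk, against 101.9 to 237.2 in AKR 25 wk, and 1 of 11 tested was called, higher in SAMP 25 wk against AKR 25 wk. Foxl1, a marker of subepithelial cells that make BMP ligands, stayed under 1 FPKM in every library. Grem1 was lowest in SAMP 5 wk replicate 3 and AKR 25 wk replicate 2, whose fibroblast sums of 177.5 and 101.9 were the lowest of all 9. It was highest in SAMP 5 wk replicates 1 and 2, whose sums of 363.7 and 296.3 were the highest. Bmp2 was highest in AKR 25 wk replicate 2, at 5.11 FPKM, where the fibroblast sum was lowest. Smooth muscle markers summed to 134.8 to 154.5 FPKM in SAMP 25 wk, 45.9 to 119.2 in SAMP 5 wk, against 52.4 to 130.2 in AKR 25 wk, and endothelial markers to 13.6 to 23.9, 10.7 to 19.3 and 12 to 19.2 in the same groups. The part of these cells in the members' values was not tested.

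**Figure D4:**
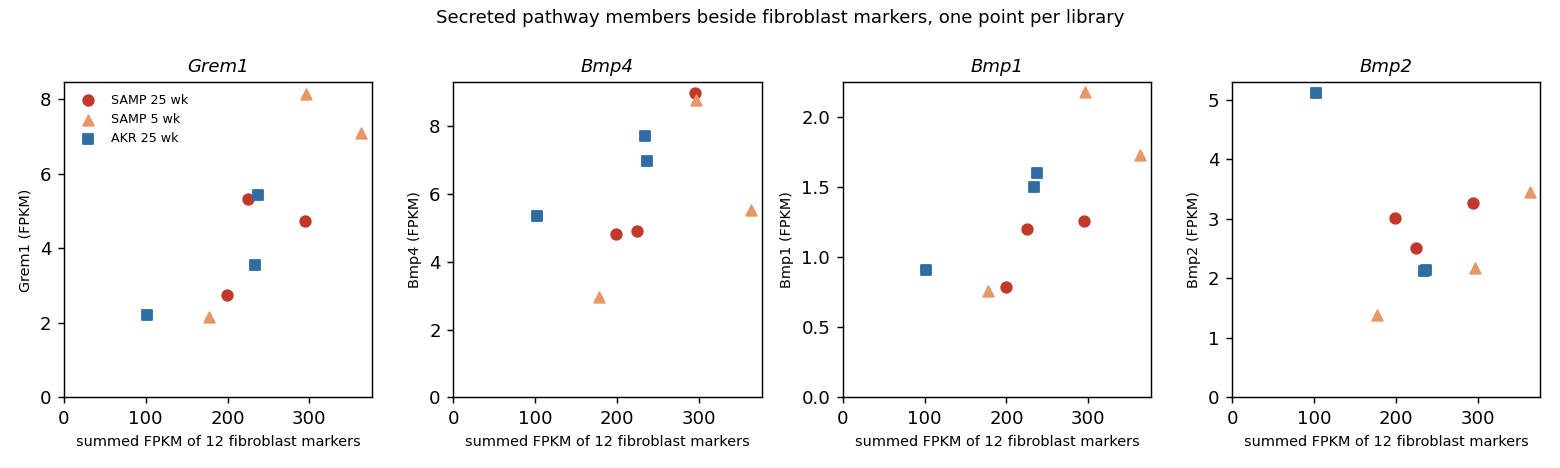
FPKM of Grem1, Bmp4, Bmp1 and Bmp2 against the summed FPKM of 12 fibroblast markers, 1 point per library. The lowest Grem1 values, 2.16 and 2.21 FPKM, belong to the libraries with the lowest sums, 177.5 and 101.9, and Bmp2 is highest at the lowest sum.

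A wider list of 82 pathway genes, with further ligands, receptors, secreted and intracellular regulators and targets, held 77 genes in the table and 49 tested. In SAMP 25 wk against AKR 25 wk, 1 was called higher and 1 lower, both intracellular regulators, a share of 4.08% beside 2.94% of all genes. In the other comparisons 0 of 49 were called with limma, beside 1.52% of all genes for SAMP 25 wk against SAMP 5 wk and 0.552% for SAMP 5 wk against AKR 25 wk. At an unadjusted p under 0.05 the limma fit had 6, 5 and 6 of the 49, or 12.2%, 10.2% and 12.2%, beside 15.5%, 16.5% and 7.47% of all genes. The list's median differences were -0.12, -0.04 and -0.09 on the log2 scale, beside the all-gene medians of -0.15, -0.12 and -0.03. Of its 18 transcriptional targets 11 were tested. In SAMP 25 wk against AKR 25 wk 5 of these lay above 0 and 6 below, with a median of -0.08.

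Nedd4l, a ubiquitin ligase that marks activated Smad2 and Smad3 for breakdown and also acts on epithelial ion channels, was at 3.08, 2.62 and 2.49 FPKM in SAMP 25 wk, at 4.84, 4.89 and 5.66 in SAMP 5 wk and at 7.0, 9.11 and 5.91 in AKR 25 wk. The groups did not overlap, with SAMP 25 wk lowest and AKR 25 wk highest. Nedd4l was lower by 1.15 ± 0.21 on the log2 scale in SAMP 25 wk against AKR 25 wk (SE, limma adjusted p = 0.011), in 3 of 3 diseased libraries. It was called in 17 of 19 alternatives, and not without SAMP 25 wk replicate 3 (-1.10, limma adjusted p = 0.052) or without both unusual libraries (-0.95, limma adjusted p = 0.15). Its differences in SAMP 25 wk against SAMP 5 wk and in SAMP 5 wk against AKR 25 wk were -0.72 (limma adjusted p = 0.12) and -0.43 (limma adjusted p = 0.69).

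Pmepa1, a TGF-beta target whose product binds Smad2 and Smad3 and dampens the signal, was at 7.36, 11 and 7.93 FPKM in SAMP 25 wk, at 5.26, 4.95 and 3.82 in SAMP 5 wk and at 5.04, 3.10 and 3.96 in AKR 25 wk. The diseased libraries lay above all others, and SAMP 5 wk overlapped AKR 25 wk. Pmepa1 was higher by 0.96 ± 0.23 on the log2 scale in SAMP 25 wk against AKR 25 wk (SE, limma adjusted p = 0.047), in 3 of 3 diseased libraries. The call held in 4 of 19 alternatives, with differences of 0.60 to 1.11 and limma adjusted p of 0.021 to 0.25. It was lost on leaving out any 1 library other than SAMP 25 wk replicate 1, with differences of 0.80 to 1.10 and limma adjusted p of 0.060 to 0.19, and without both unusual libraries (0.87, limma adjusted p = 0.25). In SAMP 25 wk against SAMP 5 wk the Pmepa1 difference was 0.77 (limma adjusted p = 0.13).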

How the data were processed

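RNA-seq values were read from 1 deposited table of 18220 rows and 9 libraries, grouped by the strain and age in the labels. The values are FPKM made by the authors, per the file headers. The submitters' processing notes name Trimmomatic, STAR, HTSeq and DESeq2 with GRCm38, without versions, and the tool and transcript lengths behind the FPKM are not given in the sources used here. Because FPKM values are not counts, count models were left aside. Gene names came from RefSeq on GRCm38.p6 by gene number for 18155 rows and by transcript for 10, and 55 stayed unnamed.

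Genes with a mean of at least 1 FPKM were tested on log2(FPKM + 1), where the pseudocount of 1 understates the change of low genes. The test was limma 3.58.1 in R 4.3.3, with 1 fit of 3 group means over all 9 libraries, a trend in the variances, 6 residual degrees of freedom and Benjamini-Hochberg adjustment at 0.05. Intervals at 95% come from the same fit. The fit was checked on simulated data. Read depth was inferred from the spacing of low FPKM values in 13943 single-transcript genes, after taking 50 bases off each length. With a tolerance of 0.2 reads, 76.7% to 80.1% of these values came out whole, so whole reads were not recovered and read numbers are estimates. Python 3.11.15, pandas 2.3.3 and matplotlib 3.10.9 made tables and figures.

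Members and lists were chosen with earlier results of these data known. The rule for named genes gave every library's value for members that were called, or whose groups did not overlap with a difference of at least 1 on the log2 scale, and named genes of the wider list where called. Values in every library of Smad1, Smad5, Bambi, Bmp3 and Grem1 are also given, chosen after their values were seen. Alternatives were pseudocounts of 0.1 and 5, no filter, a minimum mean of 5 FPKM, TPM, equal medians, quantile normalization, only the compared groups, no variance trend and each library left out. Leaving out both unusual libraries together was added after seeing the data.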

Additional observations from a re-analysis of the deposited data

How the results depend on the processing

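Across 19 alternatives 0 of 358 values of the genes named with a difference of at least 0.5 changed sign. Of these values 319 kept their side of the threshold, 32 lost a call and 7 gained one. Some alternatives cannot change a difference, so its sign was fixed there. These were the filters, only the compared groups, no variance trend and leaving out a library of the group not compared. Most of the 319 belong to differences not called as reported. The lost calls were those of Acvr1b and Pmepa1, in 15 of 19 alternatives each, and Nedd4l, in 2 of 19. Members called in SAMP 25 wk against AKR 25 wk were 1 as reported, 0 with a pseudocount of 0.1 or 5, no filter, only the compared groups, no variance trend or both unusual libraries left out, 3 with quantile normalization, and 0 to 2 with each replicate left out. In SAMP 5 wk against AKR 25 wk quantile normalization called 1 member (Id3) against 0, and in SAMP 25 wk against SAMP 5 wk 0 were called under all 19. Over all genes, SAMP 25 wk against AKR 25 wk gave 346 calls as reported, 186 to 492 with each replicate left out and 158 without both unusual libraries. SAMP 25 wk against SAMP 5 wk gave 179, 99 with no filter, 300 with quantile normalization (71.3% of them higher, against 59.8%), and 82 to 528 with each replicate left out, the 528 without SAMP 25 wk replicate 1, of which 27.8% were higher. SAMP 5 wk against AKR 25 wk gave 65, 36 to 70 with each replicate left out and 40 without both unusual libraries. The cause of these shifts was not tested. No paired analysis was possible because replicate numbers follow accession order and pair nothing. Members below about 1 FPKM rest on few reads, so differences in Nog, Chrd, Inhbb and Bmpr1b were not detectable at this depth.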
